A study of Mus musculus with 127 samples.

Results

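GABA-A receptor transcripts were followed for 7 subunit genes, the alpha subunits Gabra2, Gabra3, Gabra4 and Gabra5, the beta subunits Gabrb1 and Gabrb2, and the delta subunit Gabrd. They were taken by name from a table of 53465 genes, which holds 19 genes of the GABA-A receptor family, 12 of them outside these 7. The counts came from single cells of mouse cultures, striatal neurons and 14 astrocytes, each drawn into a patch pipette right after electrical recording and sequenced (Patch-seq). All striatal neurons came from newborn C57BL/6 mice (P0-P1), grew on small islands of cortical astrocytes and were collected on day 15 in vitro.

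Lentivirus gave the neurons a GFP fusion of exon 1 of human HTT, the Huntington disease gene, with a normal tract of 25 glutamines (25Q, labelled wild type) or an expanded tract of 97 (97Q, labelled mutant). Cultures received DMSO as vehicle or 100 nM RGFP109, which blocks HDAC1 and HDAC3 (enzymes that remove acetyl groups from histones), from day 6 in vitro and again every 3 days. The groups held 29 neurons with 25Q and vehicle, 26 with 97Q and vehicle, 23 with 25Q and RGFP109, and 26 with 97Q and RGFP109, and every one of these groups had cells in batches 1, 2 and 3. The 9 neurons given an empty vector, labelled wild type, received no RGFP109. The 14 untreated astrocytes from newborn cortex were also collected on day 15 in vitro. Both of these groups were in batch 3 only. Statements on all neurons cover these 5 groups of neurons. The labels name no animal or culture, and the human transgene is not among the table's mouse genes, so these counts give no check of which construct a neuron carried.

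GABA-A receptors are chloride channels built as a ring of subunits around a pore, and they carry most fast inhibition in the brain. A receptor usually combines alpha and beta subunits with a gamma or a delta subunit, and the mix sets where the channel sits and how it responds to GABA and to drugs. Many receptors with gamma subunits gather at synapses, whereas receptors with alpha4 and delta lie outside them and pass a steady, tonic current. In the adult striatum, projection neurons are known for alpha2 and alpha4 and for delta.

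Total counts per cell ran from 999700 to 9263305 (median 4440040), and a neuron of batch 2 had a count in a median of 8877 genes, against 12436.5 in batch 1 and 11844.5 in batch 3. The labelled cell types were checked against marker genes. Snap25, a presynaptic protein of neurons, reached at least 10 CPM (counts per 1000000 counts of the cell) in every neuron and in 0 of 14 astrocytes. Gad1, which makes GABA, reached it in all neurons of the 25Q and empty vector groups, in 24 of 26 with 97Q and vehicle and in 25 of 26 with 97Q and RGFP109. Slc17a7 and Slc17a6, the transporters of glutamatergic neurons, had a median of 0 in all groups. Adult markers of striatal projection neurons were uneven, with Ppp1r1b at 10 CPM or more in 14 of 29 neurons with 25Q and vehicle. The summed CPM of 13 astrocyte markers had a median of 5225.5 in the astrocytes and of 33.4 to 133 in the neuron groups, and 10 of all neurons passed 10% of the astrocyte median.

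Gabra2, Gabra4 and Gabrb1 are neighbours on chromosome 5 (positions on GRCm38). Gabra2 lies at chr5:70957597-71095849 on the minus strand. Gabra4 lies at chr5:71569749-71658308, also on the minus strand. Gabrb1 lies at chr5:71658113-72149037 on the plus strand, so that it and Gabra4 overlap at their starts by 196 bases, 46 of them exonic in both. Gabra5 lies at chr7:57407672-57510059 on the minus strand and shares 148 exon bases with the antisense gene Gm9962. Whether counting was done by strand is not given in the sources used here, so reads in these shared bases cannot be told apart. Gabra3 lies at chrX:72432681-72656848 (minus), Gabrb2 at chr11:42419757-42629028 (plus) and Gabrd at chr4:155384980-155398112 (minus).

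Upstream sequences from RefSeq (GRCm38.p6) are shown for Gabra2 and Gabra4, whose summed levels did not overlap between the tracts under vehicle, and for Gabra5, whose levels did not overlap under RGFP109. They were read on the minus strand from chr5:71095850-71096099, chr5:71658364-71658558 and chr7:57510060-57510309, ending at the gene start for Gabra2 and Gabra5 and 55 bases before it for Gabra4. The summed levels of Gabrd did not overlap under vehicle either, but the sources used here held no upstream entry for Gabrd. Capitals mark GC boxes (GGGCGG) and CCAAT boxes (CCAAT) on either strand.
Gabra2: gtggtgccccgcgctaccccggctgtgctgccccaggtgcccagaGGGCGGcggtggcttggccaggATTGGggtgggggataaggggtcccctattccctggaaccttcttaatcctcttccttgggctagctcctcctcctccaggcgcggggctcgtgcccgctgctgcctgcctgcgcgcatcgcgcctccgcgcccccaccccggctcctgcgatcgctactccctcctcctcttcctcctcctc
Gabra4: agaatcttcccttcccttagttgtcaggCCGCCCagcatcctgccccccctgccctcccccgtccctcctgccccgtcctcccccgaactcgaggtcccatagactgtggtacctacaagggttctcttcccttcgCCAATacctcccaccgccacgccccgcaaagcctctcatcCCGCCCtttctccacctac
Gabra5: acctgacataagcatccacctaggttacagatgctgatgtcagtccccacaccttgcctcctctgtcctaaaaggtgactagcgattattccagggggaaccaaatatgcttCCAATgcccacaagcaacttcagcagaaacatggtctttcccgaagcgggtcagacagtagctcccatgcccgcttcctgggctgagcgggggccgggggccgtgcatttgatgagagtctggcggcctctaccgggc
Gabra2 has 1 GC box and 1 CCAAT box, Gabra4 has 2 and 1, and Gabra5 has no GC box and 1 CCAAT box. Over the 250 bases upstream of 32851 mouse starts, 32.7% hold a GC box and 33.8% a CCAAT box. The TATA box letters TATAAA, present in 12.4% of all windows, occur upstream of none of these 3 genes, and neither does the cAMP response element TGACGTCA, present in 1.55%. The bases shown are 70% G or C for Gabra2, 63.6% for Gabra4 and 56.4% for Gabra5, against a median of 52.4% over all 250-base windows. These letters describe the windows and were not tied to the counts.

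Gabra2, the alpha subunit of many striatal synapses, was the most abundant of the 7 transcripts. It had a count in every neuron, with a lowest level of 7.17 CPM, a median of 508 CPM and a highest of 2975 CPM. Gabra4, the tonic alpha subunit that pairs with delta, had a median of 139.5 CPM and reached 10 CPM or more in 83 neurons. Gabra5, an alpha subunit of tonic receptors best known from the hippocampus, had a median of 63.6 CPM and reached 10 CPM in 77. Gabra2 alone was near universal at that level, in all neurons but 1.

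The beta subunits, which every common receptor needs for assembly, were both widespread. Gabrb1 had a median of 132 CPM and reached 10 CPM in 98 neurons, and Gabrb2 had a median of 62.97 CPM and reached it in 73. Gabra3 and Gabrd were instead on in some neurons and nearly silent in the rest. Gabra3, an alpha subunit of the diazepam-sensitive class, ran from 0 to 776 CPM with a median of 0.880 CPM and reached 10 CPM in 47 of all neurons (41.6%, exact 95% interval 32.4% to 51.2%). Gabrd, the delta subunit of extrasynaptic receptors, ran from 0 to 517 CPM with a median of 0 and reached 10 CPM in 24 neurons (21.2%, exact 95% interval 14.1% to 29.9%). The intervals cover counting of cells only.

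Levels of different genes were compared per kilobase of annotated exon (RPKM), which depends on how much of the annotated length these neurons transcribe. The median over all neurons was 66.5 RPKM for Gabra2, 22.9 for Gabra4, 21.4 for Gabra5, 9.90 for Gabrb2, 9.52 for Gabrb1, 0.224 for Gabra3 and 0 for Gabrd. Gabra2 lay above Gabra4 in 88 neurons and below it in 25. Gabra4 and Gabra5 changed places from neuron to neuron, with Gabra4 higher in 56 and Gabra5 in 55. Gabrb2 was above Gabrb1 in 49 neurons and below it in 64, so these neighbours in the order did not separate beyond the spread of the cells. Gabra3 was above Gabrd in 63 neurons and below it in 33.

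**Figure D1:**
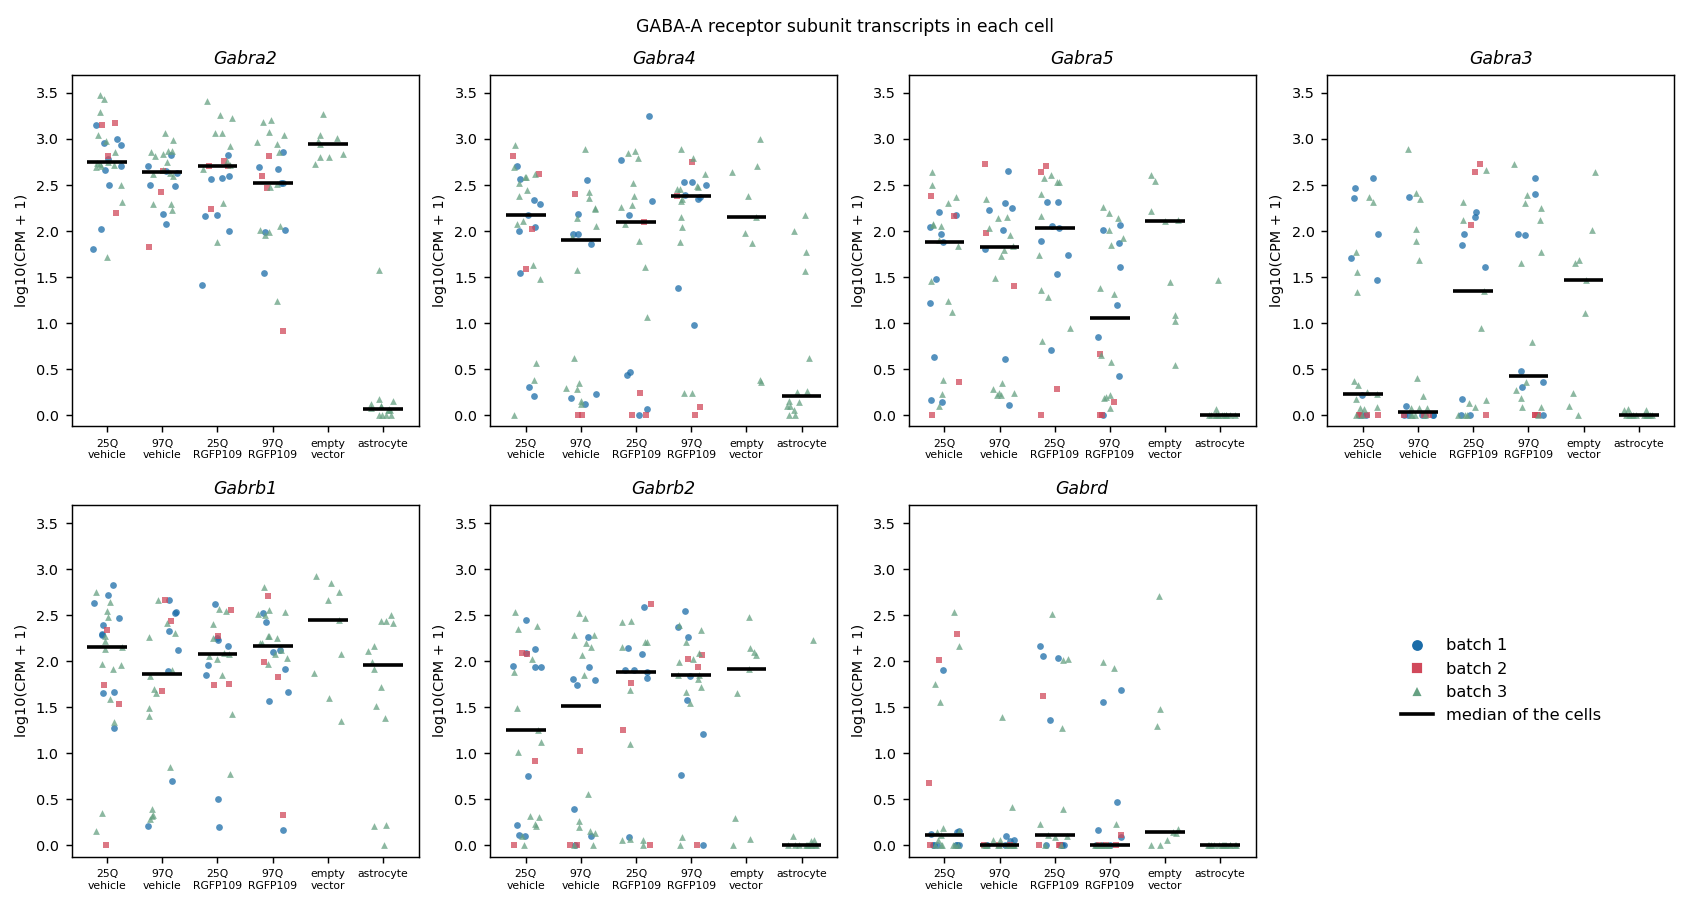
Level of each subunit gene in every cell as log10(CPM + 1) on the vertical axis, by group, with a black line at the median and marker shape and colour for batch. Gabra2 is high in all but a few neurons, Gabra3 and Gabrd split into cells near 0 and cells above 10 CPM, and in the astrocytes Gabrb1 alone has a median far above 0.

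By group, the median Gabra2 level over cells was 568 CPM with 25Q and vehicle, 439 with 97Q and vehicle, 502 with 25Q and RGFP109, 331 with 97Q and RGFP109, 884 with the empty vector and 0.181 in the astrocytes. For Gabra4 the medians in the same order were 149, 78.1, 126, 237, 139.5 and 0.612 CPM, and for Gabra5 they were 75.8, 65.8, 108, 10.3, 127.4 and 0 CPM. For Gabrb1 they were 142, 72.6, 119, 144, 279.9 and 89.4 CPM, and for Gabrb2 17.2, 32.1, 75.5, 70.5, 81.2 and 0 CPM. In each of these genes the cells of the 5 groups of neurons overlapped widely, and the order of the medians was not the same from gene to gene. Gabra3 reached 10 CPM in 11 of 29, 7 of 26, 12 of 23, 11 of 26 and 6 of 9 neurons of the 5 groups and in 0 of 14 astrocytes. In bulk sums of these cells, fewer cells with a transcript and less of it per cell cannot be told apart, so shares of cells stand beside the sums below.

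Within a cell, the highest alpha transcript of the whole family per kilobase was one of the 4 alpha subunits described here in 101 neurons and another family gene in 12. Among these 4, Gabra2 led in 64 neurons, Gabra4 in 19, and Gabra3 and Gabra5 in 15 each. Without division by length, Gabra2 led in 86 and Gabra5 in 2. By group, Gabra2 led per kilobase in 22 of 29 neurons with 25Q and vehicle, 16 of 26 with 97Q and vehicle, 9 of 23 with 25Q and RGFP109, 11 of 26 with 97Q and RGFP109, and 6 of 9 with the empty vector. The highest beta transcript of the family was Gabrb1 or Gabrb2 in 18 of all neurons per kilobase and in 32 by CPM. A median neuron held 5 of the 7 transcripts at 10 CPM or more, and 4 neurons held all 7. The median was 3.5 in neurons with 97Q and vehicle and 5 in each of the other 4 groups of neurons.

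Gabrd was found mostly where Gabra4, its usual partner, was also present. Of the 24 neurons with Gabrd at 10 CPM or more, 22 (91.7%) had Gabra4 at that level, against 61 of the other 89 (68.5%). Their median Gabra4 level was 380.2 CPM, against 98.7 CPM in the rest. Company at 10 CPM was not particular to Gabra4. Gabra2 reached it in all 24 and in 88 of the 89, and Gabrb1 in 23 and 75. Gabra5 reached it in 19 and 58, Gabrb2 in 17 and 56, and Gabra3 in 7 of the 24. The number of genes with a count had medians of 12038 and 11875. These shares describe the cells and carry no test.

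Across all neurons, the Pearson r of log2(CPM + 1) between Gabra4 and Gabrd was 0.37, the highest among the 21 pairs of these genes, and that between Gabra2 and Gabra4 was 0.33. The lowest r was -0.19, between Gabra5 and Gabrb2. The cells of a batch and group share their origin, so these values describe the cells and carry no p. No subunit had an r above 0.24 with the log2 of the cell's total count.

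**Figure D2:**
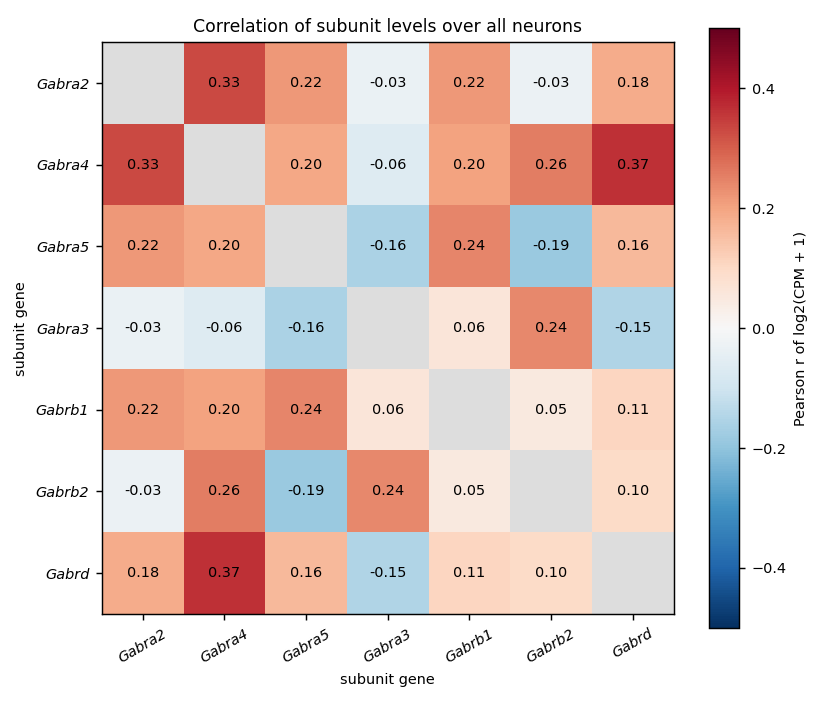
Pearson r of log2(CPM + 1) over all neurons for each pair of subunit genes, with the genes on both axes and colour for r. The strongest cell is Gabra4 with Gabrd at 0.37, and most of the other pairs lie between -0.2 and 0.3.

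Among 11015 genes with a count in at least 50% of the neurons, the 3 with the most similar pattern to each subunit were named by their r over the same neurons. For Gabra2 they were Gria2, an AMPA receptor subunit (r 0.53), Gpm6a, a neuronal membrane glycoprotein (0.53), and Zcchc12 (0.52). For Gabra4 they were Atp2b2, a plasma membrane calcium pump (0.53), Grm5, a metabotropic glutamate receptor (0.50), and Camkv (0.48). For Gabrd they were Camkv (0.39), Gabra4 (0.37) and Smpd3, a sphingomyelinase (0.36). The 99th percentile of r over all genes compared was 0.32 for Gabra2, 0.31 for Gabra4 and 0.24 for Gabrd.

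The gene most like Gabra5 was Gm9962 (r 0.85), the antisense gene that shares exon bases with it, followed by Cnih3, an AMPA receptor auxiliary protein (0.43), and Uchl4 (0.40). Gabrb1 was most like Pgrmc1 (0.50), Zdbf2 (0.45) and Ric3, a chaperone of nicotinic receptors (0.45). Gabrb2 was most like Tmem54 (0.43), Ttll7 (0.42) and Dpy19l3 (0.41). Gabra3 was most like Gm10308 (0.53), Plxnc1, a plexin receptor (0.39), and Gpr61 (0.37).

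To compare groups, the counts of the neurons of a group were summed within each batch, which gave 3 sums per group, and the batch was both replicate and block. With 97Q and vehicle, the sums of Gabra2, Gabra4 and Gabrd were below all 3 sums of 25Q with vehicle. No subunit passed edgeR's quasi-likelihood test after adjustment over the 15091 genes tested (adjusted p 0.969 to 0.985). The question here was whether the expanded tract goes with other levels of the receptor's transcripts.

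Gabra2 stood at 656, 720.1 and 918 CPM in the 25Q vehicle sums of batches 1, 2 and 3. With 97Q it stood at 371, 248 and 589.9 CPM. All 3 sums with 97Q were below all 3 with 25Q, and thus also within each batch. The edgeR log2 fold change was -1.04 (SE 0.36, unadjusted p 0.0164, adjusted p 0.969). Over single neurons the median was 568 CPM with 25Q and 439 CPM with 97Q, and the ranges overlapped widely, from 51.5 to 2975 CPM and from 65.9 to 1165 CPM.

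Gabra4 stood at 150.1, 343 and 269.6 CPM with 25Q and vehicle, and at 109, 92.1 and 135 CPM with 97Q. The groups did not overlap. The log2 fold change was -1.33 (SE 0.64, edgeR adjusted p 0.969). In neurons, 24 of 29 with 25Q and 15 of 26 with 97Q had 10 CPM or more, and the medians were 149 and 78.1 CPM. One neuron gave 71.3% of the Gabra4 counts of the 25Q sum of batch 2, and 1 of the 3 neurons gave all of them in the 97Q sum.

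Gabrd stood at 6.02, 67.1 and 43.6 CPM with 25Q and vehicle, and at 0.0817, 0 and 2.27 CPM with 97Q. Its sums were again fully apart, and the 97Q sum of batch 2, from 3 neurons, held no Gabrd count. The edgeR log2 fold change was -7.50 (SE 2.35, unadjusted p 0.0104, adjusted p 0.969). It was -7.26 without the neuron with the highest level, and -4.52 to -11.26 with any 1 batch left out. DESeq2, which estimates the spread in another way and called 213 genes in this comparison, gave Gabrd a log2 fold change of -7.76 with an adjusted p of 0.000616, the only one of the 7 that it called.

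Few neurons stood behind these Gabrd values. With 25Q and vehicle, 7 of 29 neurons reached 10 CPM (24.1%, exact 95% interval 10.3% to 43.5%). With 97Q and vehicle, 1 of 26 did (3.85%, 0.0973% to 19.6%), at 23.6 CPM, and the highest with 25Q was 341 CPM. Single neurons gave 98.2%, 57.4% and 67.8% of the Gabrd counts of the 25Q sums in batches 1, 2 and 3. The comparison of sums therefore rests on the presence or absence of a few neurons with the transcript.

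The other 4 subunits overlapped between the tracts under vehicle. Gabrb1 stood at 291, 88.7 and 171 CPM with 25Q and at 167, 250.2 and 87.0 CPM with 97Q, lower with 97Q in batches 1 and 3 and higher in batch 2. Gabra5 stood at 72.8, 94.8 and 117 CPM with 25Q and at 149, 194.7 and 63.3 CPM with 97Q, higher in batches 1 and 2 and lower in batch 3 (log2 fold change 0.52, SE 0.96). Gabrb2 stood at 73.2, 40.8 and 74.9 CPM with 25Q and at 60.7, 3.58 and 97.7 CPM with 97Q (log2 fold change -0.46, SE 0.81). For Gabrb2 the low batch 2 value came from 3 neurons. Gabra3 stood at 114, 0 and 40.5 CPM with 25Q and at 18.3, 0 and 75.8 CPM with 97Q (log2 fold change -0.60, SE 2.28), without a common direction.

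Against all genes, 3 of 7 subunits had lower, non-overlapping sums with 97Q under vehicle, where 4.68% of the 15091 genes tested did, and none had higher ones, where 3.78% did. Without batch 2, Gabrb1 joined these 3, on 2 sums per group, where 14.6% of genes were apart and lower and 12.9% apart and higher. At an unadjusted p under 0.05 stood 2 of the 7 (Gabra2 and Gabrd, both lower), where 3.96% of genes did. At the adjusted threshold edgeR called 0 genes (0% of those tested), with 597 at an unadjusted p under 0.05, DESeq2 called 213 and limma-voom 0. Of the 7 subunits, 6 were lower, with a median log2 fold change of -0.60, beside a median of 0.06 over all genes tested. The 7 were chosen with results of these data known, and 7 genes are too few to set them apart from other genes.

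**Figure D3:**
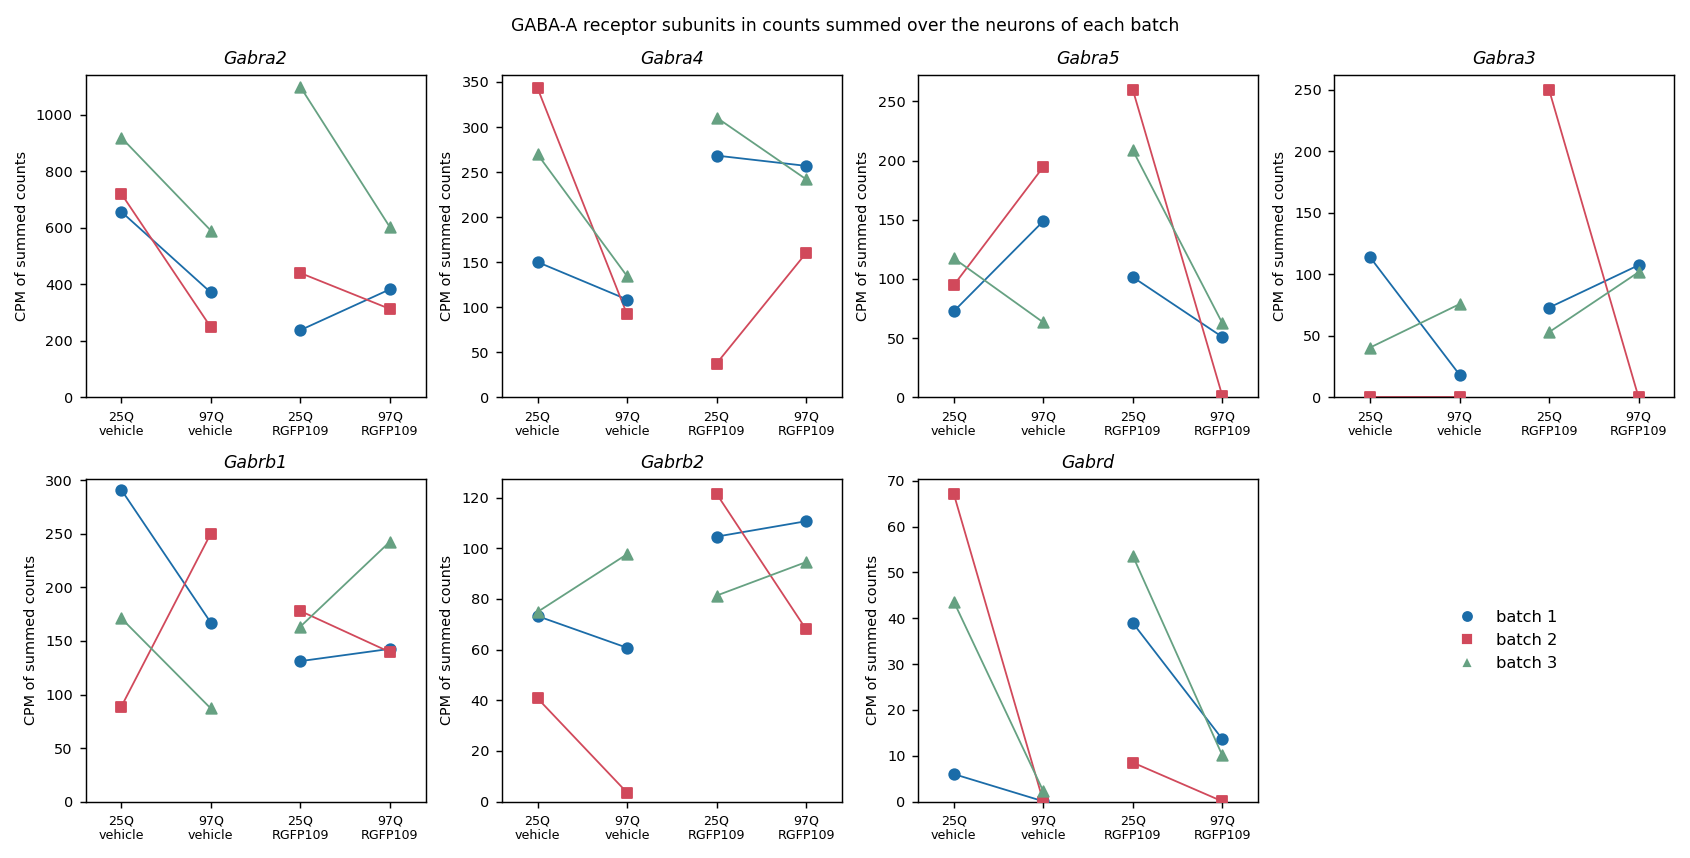
CPM of the counts summed over the neurons of each batch, for the 7 subunit genes in the 4 groups with a transgene, with lines joining the 25Q and 97Q sums of a batch. Under vehicle the 97Q sums of Gabra2, Gabra4 and Gabrd lie below all 25Q sums, and under RGFP109 those of Gabra5 do.

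Marker lists were set beside these differences. All 12 tested markers of striatal projection neurons were lower with 97Q under vehicle (median log2 fold change -1.52, edgeR calling 0 of them), and 4 of 5 tested interneuron markers were lower (median -2.30). The summed CPM of the 13 projection neuron markers ran from 35.8 to 8360.2 (median 836) with 25Q and from 16.2 to 1675 (median 543) with 97Q. Of the pan-neuronal markers, 5 of 8 were lower (median -0.33), and of the tested astrocyte markers 5 of 10 (median 0.36). The part of cell type in the subunit differences was not tested. Without the neurons rich in astrocyte markers, the same 3 subunits had non-overlapping sums. The share of all genes was not counted for that set of neurons.

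Other GABA genes were described from lists, of which no member passed edgeR's adjusted threshold in any comparison. Under vehicle, 4 of the 5 tested family genes outside the 7 were lower with 97Q (median log2 fold change -0.41). For GABA synthesis, packaging, uptake and breakdown it was 8 of 10 (median -0.97), and for GABA-B receptors and their Kctd partners 4 of 5 (-0.30). Genes of receptor clustering and trafficking were split, with 14 of 26 lower (-0.24), as were chloride transporters and their kinases, with 6 of 9 lower (-0.14). Gad1, the GABA-making enzyme named here after its values were seen, had the lowest adjusted p of these list genes, with a log2 fold change of -1.83 under vehicle (SE 0.25, edgeR adjusted p 0.445) and -2.11 under RGFP109 (SE 0.25, adjusted p 0.0742).

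Under RGFP109 the tract comparison used other neurons, and Gabra5 was the subunit whose sums were apart. It stood at 102, 259.7 and 209 CPM with 25Q, and at 51.02, 1.31 and 62.7 CPM with 97Q. Every 97Q sum was below every 25Q sum, and batch 2 showed the widest gap. The log2 fold change was -2.38 (SE 1.03, edgeR unadjusted p 0.0455, adjusted p 0.9995). It was -1.53 without batch 2. In single neurons the medians were 108 and 10.3 CPM, with 18 of 23 and 13 of 26 neurons at 10 CPM or more.

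Gabrd under RGFP109 stood at 38.97, 8.53 and 53.6 CPM with 25Q and at 13.7, 0.0773 and 10.1 CPM with 97Q. It was lower with 97Q within each batch, but the ranges of the sums overlapped (log2 fold change -2.25, SE 1.73, edgeR adjusted p 0.9995). Gabrd was thus lower with 97Q in all 3 batches under vehicle and again under RGFP109, in neurons that the comparisons do not share. It was the only one of the 7 with that pattern, and 2.81% of the genes tested had it. In neurons, 9 of 23 with 25Q and 4 of 26 with 97Q had 10 CPM or more. As under vehicle, these sums rested on few neurons. Single neurons gave 38.98%, 100% and 64.4% of the Gabrd counts of the 25Q sums in batches 1, 2 and 3. In batch 2 that was 89 counts from 1 of 4 neurons with 25Q, against 1 count with 97Q. The shared direction under vehicle and RGFP109 therefore depends on the presence of a few neurons with the transcript.

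Gabra2 and Gabra4 did not keep their order under RGFP109. Gabra2 stood at 238, 439.9 and 1098 CPM with 25Q and at 382, 313 and 603 CPM with 97Q, and its log2 fold change was -0.24 (SE 0.36). Gabra4 stood at 268, 37.6 and 311 CPM with 25Q and at 257, 160.1 and 242 CPM with 97Q (log2 fold change 0.24, SE 0.64). The sums overlapped for both. For Gabra3 the log2 fold change of -6.94 (SE 4.05) rested on batch 2, where the 25Q sum was 249.7 CPM and the 97Q sum 0, and it was 0.63 without that batch. DESeq2 called Gabra3 (log2 fold change -10.01, adjusted p 0.000893). Gabrb1 (0.21, SE 0.48) and Gabrb2 (-0.19, SE 0.78) overlapped.

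Under RGFP109, 1 of the 7 subunits had lower, non-overlapping sums, where 3.58% of genes tested did, and none had higher ones (3.6% of genes). At an unadjusted p under 0.05 stood 1 of the 7, Gabra5 (3.74% of genes). The median log2 fold change of the 7 was -0.24, beside 0.00 over all genes. With batch 2 left out, 4 of the 7 did not overlap, Gabra4, Gabra5 and Gabrd lower and Gabra3 higher. With only 2 sums per group, 11.5% of genes were then apart and lower and 15.8% apart and higher. edgeR called 0 genes (0%), with 564 at an unadjusted p under 0.05, while DESeq2 called 277 and limma-voom 3. The projection neuron markers were split here, with 6 of 12 tested lower (median -0.05), and the summed CPM of that list had medians of 660.2 with 25Q and 466 with 97Q. Interneuron markers were lower in 4 of 5 tested (median -5.87), pan-neuronal markers in 7 of 8 (-0.52), oligodendrocyte lineage markers in 6 of 6 (-1.22) and astrocyte markers in 4 of 10 (0.13). Their part in the subunit values was not tested. Genes of GABA synthesis, packaging, uptake and breakdown were again lower in 8 of 10 (median -0.42). Family genes outside the 7 were lower in 3 of 5 (-0.40), and genes of clustering and trafficking in 14 of 26 (-0.10).

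Next, RGFP109 was compared with vehicle within each tract. These comparisons use the same sums as the tract comparisons above, so their differences are not independent of those. In 97Q neurons, Gabra4 was higher in every RGFP109 sum (257, 160.1 and 242 CPM) than in any vehicle sum (109, 92.1 and 135 CPM), and thus in every batch. The log2 fold change was 1.09 (SE 0.63, edgeR unadjusted p 0.118, adjusted p 0.999). The share of neurons with 10 CPM or more was 15 of 26 with vehicle and 21 of 26 with RGFP109, with medians of 78.1 and 237 CPM. In batch 2, 1 neuron gave all Gabra4 counts of the vehicle sum and 1 gave 72.4% of those with RGFP109.

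Gabra5 went the other way in 97Q neurons, with vehicle sums of 149, 194.7 and 63.3 CPM against 51.02, 1.31 and 62.7 CPM with RGFP109. The sums did not overlap, but batch 3 differed by less than 1 CPM. The log2 fold change was -1.89 (SE 1.03, edgeR adjusted p 0.999), and the groups overlapped once the neurons rich in astrocyte markers were left out. Gabrd stood at 13.7, 0.0773 and 10.1 CPM with RGFP109 against 0.0817, 0 and 2.27 CPM with vehicle (log2 fold change 3.91, SE 2.00, edgeR adjusted p 0.999). It was higher in each batch, though by a single count in batch 2, and the sums overlapped. The log2 fold change was 0.23 for Gabra2 (SE 0.35), 0.19 for Gabrb1 (SE 0.49), 1.12 for Gabrb2 (SE 0.83) and 1.04 for Gabra3 (SE 2.16), and the sums of all 4 overlapped.

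Thus 1 subunit had higher and 1 lower non-overlapping sums in this comparison, where 2.76% and 3.39% of genes did. Without batch 2, the 2 sums per group were apart and higher for Gabra3, Gabra4 and Gabrd (12.8% of genes) and apart and lower for Gabra5 (12.5% of genes). Of the 7 subunits, 6 were higher (median log2 fold change 1.04), beside a median of -0.04 over all genes tested. The 97Q vehicle sums also entered the tract comparison under vehicle, where 6 were lower, so these counts are not independent. edgeR called 0 genes (0%), with 375 (2.48%) at an unadjusted p under 0.05, none of them a subunit, DESeq2 called 110, none of them among the 7, and limma-voom 0. Projection neuron markers were higher in 7 of 12 tested (median 0.67) and astrocyte markers in 7 of 10 (0.47). Pan-neuronal markers were lower in 6 of 8 (-0.25) and oligodendrocyte lineage markers in 6 of 6 (-1.02). Their part in the subunit values was not tested. Genes of GABA synthesis, packaging, uptake and breakdown were higher in 8 of 10 (0.20), genes of clustering and trafficking in 15 of 26 (0.10), and family genes outside the 7 in 2 of 5 (-0.33).

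In 25Q neurons, Gabrb2 was the subunit with separate sums, at 105, 121 and 81.3 CPM with RGFP109 and 73.2, 40.8 and 74.9 CPM with vehicle. The log2 fold change was 0.85 (SE 0.79, edgeR adjusted p 1). A single neuron gave 86.0% of the batch 2 counts with RGFP109, and without it the log2 fold change was -0.11. Higher, non-overlapping sums were found for 1 of the 7 subunits and 2.89% of genes tested, and lower ones for none of the 7 and 3.84% of genes. Without batch 2, the 2 sums per group were apart for Gabrb2, higher with RGFP109 (10.2% of genes), and for Gabrb1, lower with it (15.9% of genes).

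Gabra5 was higher with RGFP109 in each batch of 25Q neurons (log2 fold change 1.00, SE 0.95). It was lower in each batch of 97Q neurons, though nearly equal in batch 3 (62.7 against 63.3 CPM). The interaction of tract and drug for Gabra5 had a log2 value of -2.89 (SE 1.41, edgeR unadjusted p 0.0695, adjusted p 0.998), and 3% of genes tested had opposite differences of this kind in all 3 batches. Gabra2 (-0.58, SE 0.36), Gabra4 (-0.49, SE 0.67), Gabrb1 (-0.18, SE 0.49) and Gabrd (-1.34, SE 2.02) overlapped between drug and vehicle in 25Q neurons. Gabra3 had a log2 fold change of 7.38 (SE 4.09), which DESeq2 called (10.42, adjusted p 0.000844) and which was -0.22 without batch 2, where the vehicle sum was 0 CPM. edgeR called 0 genes (0%) for the drug in 25Q and 0 (0%) for the interaction, with 381 (2.52%) and 393 (2.6%) at an unadjusted p under 0.05, none of them a subunit. DESeq2 called 143 and 70, and limma-voom 0 in both. For the drug in 25Q, projection neuron markers were lower in 9 of 12 tested (median -1.35), and astrocyte markers were higher in 6 of 10 (0.90). Of the pan-neuronal markers 4 of 8 were higher (0.01), and of the oligodendrocyte lineage markers 4 of 6 (1.15). Their part was not tested. In this comparison 4 of the 7 subunits were lower (median -0.18, beside 0.00 over all genes).

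For the other subunits the interaction was estimated widely. Its log2 value was 5.25 for Gabrd (SE 2.68, edgeR unadjusted p 0.0799, adjusted p 0.998). With RGFP109, 97Q neurons had more Gabrd in each batch, in batch 2 by a single count. The 25Q neurons had more Gabrd with RGFP109 in batches 1 and 3 and less in batch 2. The interaction was 1.57 for Gabra4 (SE 0.92), 0.81 for Gabra2 (SE 0.50), 0.37 for Gabrb1 (SE 0.70), 0.27 for Gabrb2 (SE 1.11) and -6.34 for Gabra3 (SE 4.67). The 7 had a median of 0.37, beside -0.04 over all genes tested.

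**Figure D4:**
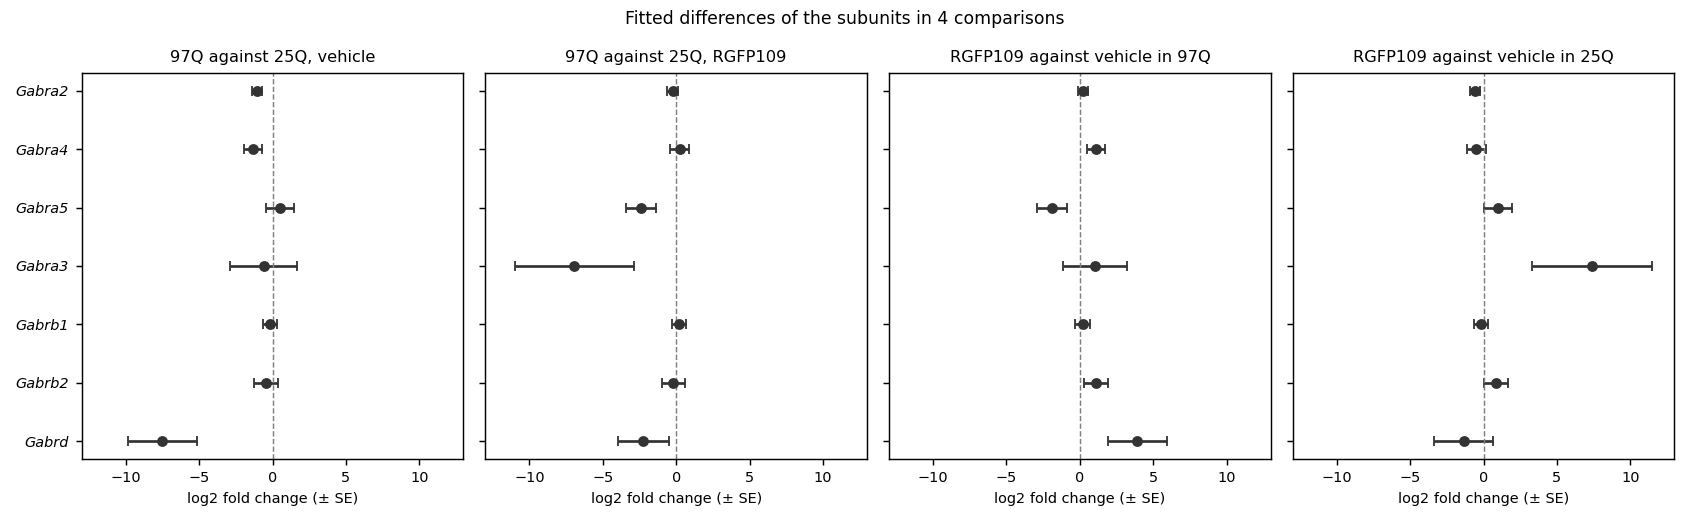
Log2 fold change from the edgeR fit for each subunit gene in 4 comparisons, with bars of 1 SE to either side and a dashed line at 0. The largest values belong to Gabrd and Gabra3, which also have the widest bars, and no subunit passes the adjusted threshold in any of the 4.

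The astrocytes and the neurons with the empty vector were each present in batch 3 only, so they were compared without a test. The 7 transcripts were all more than 2-fold lower in the 14 astrocytes than in the 9 neurons, where 36% of 16447 genes were. Gabrb1 differed least, at 122 CPM (exact Poisson 95% interval 119.9 to 124) against 348 CPM (342 to 354), a ratio of 2.85. It had a median of 89.4 CPM and reached 10 CPM in 11 of 14 astrocytes, which made it the only one of the 7 found in most of them.

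Gabra4 had the next highest level in the astrocytes, at 24.3 CPM against 305 CPM, with 4 of 14 astrocytes at 10 CPM or more. Gabrb2 was at 10.7 CPM, of which 99.6% came from 1 astrocyte, against 75.4 CPM. Gabra2 was at 3.05 CPM, with 94.7% from 1 astrocyte, against 908 CPM, and Gabra5 was at 2.18 CPM, with 99.5% from 1 astrocyte, against 154 CPM. Gabra3 had 3 counts in all astrocytes, and the neurons' level was 2277 times theirs (counting interval 779 to 11050). One neuron held 63.8% of those Gabra3 counts, and without it the ratio was 915. Gabrd had no count in the astrocytes, so its level in the neurons was at least 2562-fold higher, taking a floor of 3 counts over the 14 astrocytes, and at least 174-fold higher without the neuron that held 94.2% of the counts. Snap25 and Gad1 were at or below 2.45 CPM in all 14 astrocytes.

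Because astrocytes express Gabrb1, its level was set beside the astrocyte markers in the neurons. In the 10 neurons rich in those markers Gabrb1 had a median of 139 CPM, and in the other 103 neurons 132 CPM. Gabra2 had medians of 431 and 519 CPM in the same cells.

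Neurons with the empty vector and neurons with 25Q and vehicle of batch 3 had close Gabra2 sums, 908 and 918 CPM. Gabrb1 was 2.03 times higher with the empty vector (348 against 171 CPM), the only one of the 7 past 2-fold on the scale of CPM + 1, where 18.4% of 17065 genes were past it upwards, 23.2% downwards and 41.6% in either direction. On that scale, means of the cells gave none past 2-fold and medians gave 3. The plain ratio of the mean Gabra3 levels, 75.04 and 37.3 CPM, was 2.01. With the highest neuron of each gene left out, Gabrb1 was no longer past 2-fold (log2 ratio 0.77), and Gabrd was lower with the empty vector (-2.82). Of 9 neurons with the empty vector, all had Gabra2 and Gabrb1 at 10 CPM or more, 7 had Gabra4, 7 had Gabra5, 6 had Gabrb2, 6 had Gabra3 and 3 had Gabrd.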

How the data were processed

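The authors deposited raw read counts per Ensembl gene, 1 column per cell, without normalization. Per the submitters' processing notes, FastQC, Trimmomatic 0.36, STAR 2.5 and HTSeq 0.9.1 were used with GRCm38 (mm10). Not given in the sources used here: settings, annotation release and strand setting. Positions and exon lengths came from GENCODE M21, upstream sequences from RefSeq. SMARTer cDNA carries no molecular identifiers per the labels' protocols, so reads are not independent molecules and intervals cover counting error only.

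Counts were summed per group and batch into 12 sums (8665881 to 76217208 counts). edgeR 4.0.16 (TMM, robust quasi-likelihood, group and batch terms, 6 residual degrees of freedom, R 4.3.3) tested the 15091 genes passing filterByExpr with a count in at least 20% of 104 neurons. Tests were two-sided, with Benjamini-Hochberg adjustment over all genes and a threshold of 0.05; all 7 subunits passed the filter. SE is the absolute log2 fold change over the square root of F. DESeq2 1.42.0 and limma 3.58.1 were alternatives, and the edgeR script was tested on simulated data. P-values measure only the spread between the sums that remains after the group and batch terms. They do not measure spread between animals or cultures, since none is named.

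The batch pairs the sums per the labels: deviations from group means correlated at 0.16 to 0.23 within batch 1, 0.061 to 0.13 within batch 2, 0.25 to 0.33 within batch 3, and at most 0.094 between batches. The members and lists were chosen with earlier results of these data known. All 7 members are named, together with the 3 genes most correlated with each over all neurons; other list genes are given as counts, except Gad1 and the defining cell type markers. CPM are counts per 1000000 counts of the cell or sum.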

Additional observations from a re-analysis of the deposited data

Results flagged for a closer look

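In the 9 neurons with the empty vector, the highest neuron stood apart from the others for 4 subunits. Gabrd reached 517 CPM in 1 neuron, with the next at 29.7 CPM. Gabra3 reached 441 CPM, with the next at 102 CPM. Gabra2 reached 1873 CPM, with the next at 1095 CPM, and Gabrb2 reached 302 CPM, with the next at 139 CPM. The gap to the next neuron took 0.943, 0.77, 0.583 and 0.538 of the group's range. How often chance sets a neuron apart in this way was not computed, and levels of single neurons are skewed.

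Gabra5 was lower with RGFP109 in all 3 batches of 97Q neurons and higher in all 3 batches of 25Q neurons. Opposite differences of this kind were found for 3% of genes tested. In batch 3 the 97Q sums were nearly equal, at 62.7 CPM with RGFP109 and 63.3 CPM with vehicle. The 97Q sums of drug and vehicle overlapped once the neurons rich in astrocyte markers were left out. The interaction had a log2 value of -2.89, which did not pass edgeR's test (adjusted p 0.998).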

How the results depend on the processing

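Over 11 alternatives for each of 35 pairs of subunit and comparison, 355 of 385 recomputed log2 fold changes kept their direction and side of the threshold, 27 changed direction and 3, all by DESeq2, passed the threshold and are given above. The lowest adjusted p outside DESeq2 was 0.769.

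For 97Q against 25Q under vehicle, leaving out 1 batch gave Gabra3 -2.22 to 0.90, Gabrb1 -0.87 to 0.23 (0.018 without batch 3) and Gabrb2 -1.34 to 0.11. Gabra5 was -0.067 by limma-voom and -0.22 without its highest neuron, and Gabrb1 was 0.040 in cells thinned to 900000 counts. Under RGFP109, leaving out 1 batch gave Gabra2 -0.58 to 0.18, Gabra3 -10.00 to 0.63, Gabra4 -0.30 to 0.70 and Gabrb2 -0.33 to 0.043. By limma-voom Gabra3 was 0.38, Gabra4 -0.046 and Gabrb2 0.0090, and Gabrb2 was 0.83 without its highest neuron. For RGFP109 in 97Q, Gabrb1 was -0.30 to 0.61. For RGFP109 in 25Q, the ranges were -0.22 to 11.21 for Gabra3, -1.23 to 0.58 for Gabra4, -0.54 to 0.39 for Gabrb1 and -2.57 to 1.60 for Gabrd. By limma-voom Gabra4 was 0.014 and Gabrd 0.61, and Gabrb2 was -0.11 without its highest neuron. For the interaction, the ranges were -10.90 to 1.30 for Gabra3, -0.010 to 1.16 for Gabrb1 and -0.071 to 1.00 for Gabrb2, and Gabra3 was 0.55 by limma-voom. The cause was not tested.

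Genes called over the whole table were 0 in every edgeR comparison. DESeq2 called 213, 277, 110, 143 and 70 in the order vehicle, RGFP109, drug in 97Q, drug in 25Q and interaction. Under RGFP109 limma-voom called 3, the fit with no filter 3 and thinned cells 2, and with no filter the drug in 97Q gave 1. With no replicate block, 0 genes were called in each of the 5, and Gabra2 under vehicle was -0.96 (unadjusted p 0.101), Gabra4 -1.26 and Gabrd -5.63, and Gabra3 under RGFP109 was -0.91. Pairing by batch changed no call of the edgeR fit.

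Subunits with non-overlapping sums were recounted by choices made after the data were seen. Without batch 2, on 2 sums per group, they numbered 4 in each tract comparison and for the drug in 97Q, and 2 for the drug in 25Q, where 10.2% to 15.9% of all genes were apart in a given direction. Without the neurons rich in astrocyte markers they numbered 1 for the drug in 97Q, and the share of all genes was not counted there. Between empty vector and 25Q, 0 passed 2-fold on the scale of CPM + 1 by means of cells and 3 by medians; the plain ratio of Gabra3 means was 2.01. With 3 to 15 neurons per sum, levels of Gabrd and Gabra3 rest on few cells.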

Other observations

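The 24 neurons with Gabrd at 10 CPM or more were also set beside markers of striatal neurons, chosen with these data known. Adora2a, the adenosine receptor of indirect pathway neurons, reached 10 CPM in 6 of the 24 (25.0%) and in 5 of the other 89 (5.62%). Pde10a, a phosphodiesterase of striatal projection neurons, reached it in 19 (79.2%) and in 52 (58.4%). Bcl11b, a transcription factor of these neurons, reached it in 17 (70.8%) and in 41 (46.1%). Other markers were closer, with Drd1 in 7 (29.2%) and 16 (18.0%), Ppp1r1b in 11 (45.8%) and 34 (38.2%), and Drd2 in 3 (12.5%) and 13 (14.6%). Npy, a peptide of interneurons, reached it in 0 of the 24 and in 10 of the 89, and Sst, another, in 5 and in 10. Of the 24 neurons, 7 had 25Q and vehicle, 1 had 97Q and vehicle, 9 had 25Q and RGFP109, 4 had 97Q and RGFP109, and 3 had the empty vector. The split uses a level measured in these same neurons, so the shares carry no test.

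In the 47 neurons with Gabra3 at 10 CPM or more, Adora2a reached 10 CPM in 5 (10.6%) and in 6 of the other 66 (9.09%), and Pde10a in 28 (59.6%) and in 43 (65.2%). Bcl11b reached it in 20 (42.6%) and in 38 (57.6%), Ppp1r1b in 15 (31.9%) and in 30 (45.5%), Drd1 in 7 (14.9%) and in 16 (24.2%), and Penk in 5 (10.6%) and in 13 (19.7%). Gabrb2 reached 10 CPM in 38 of the 47 (80.9%) and in 35 of the 66 (53.03%).

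One astrocyte held the highest level of 4 of the 7 subunits within its group, Gabra4 at 148 CPM, Gabrb1 at 321 CPM, Gabrb2 at 167 CPM and, by a single count, Gabra3.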
